A study of Arabidopsis thaliana with 21 samples.

Results

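The genes of nitrate and ammonium assimilation were followed in excised Arabidopsis thaliana leaves fed through the petiole with PAP, ATP and LiCl. They are the 10 genes NIA1, NIA2, NIR1, NRT1.1, GLN2, GLN1;1, GLU1, ASN2, GDH1 and GDH2, a set drawn up by pathway with earlier results of these data known and taken by gene identifier from the 21156 loci of the deposited table. All 10 had values in all 21 libraries and passed the filter on low values, and the lowest of these values stood for 235 reads.

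Leaves assimilate nitrate in steps that begin in the cytosol, where nitrate reductase makes nitrite, and continue in the plastid, where nitrite reductase makes ammonium. Glutamine synthetase and glutamate synthase then pass the ammonium to glutamine and glutamate, asparagine synthetase moves it on to asparagine, and glutamate dehydrogenase in mitochondria can release it from glutamate again. In leaves the plastid glutamine synthetase and glutamate synthase also recapture the ammonium set free by photorespiration.

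All plants were 35-day-old F1 hybrids of Col-0 and Ler, and all solutions were made up in a buffer of PIPES, citrate, KCl and sucrose. The 7 groups were PAP + ATP + LiCl, PAP + LiCl, LiCl, PAP + ATP, ATP, PAP and buffer alone (control), with 3 libraries each. The sample labels give 1 mM ATP, 100 µM PAP and 100 mM LiCl; the treatment notes instead give PAP as 1 mM or 100 mM, so the PAP dose is open to doubt. PAP is a phosphoadenosine phosphate broken down by SAL1, a phosphatase that lithium inhibits, and the series title concerns a signal that runs through SAL1, PAP and the XRN exoribonucleases. The feeding time is not given, every leaf had been cut from its plant and fed sucrose, no group received another salt, and no group received ATP with LiCl without PAP. The labels do not say whether the libraries of a group came from separate plants, so the p-values measure the spread between libraries, which may be technical.

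Libraries held 19190821 to 27155547 reads assigned to genes (median 23657548), so 1 read was worth 0.0368 to 0.0521 CPM, the unit of the table, which scales each gene's reads to the library total. Reads of plastid genes made up 1.22% of ATP library 1 and 0.475% of PAP + ATP + LiCl library 2, and at most 0.259% of any other library. The mesophyll markers LHCB1.1, RBCS1A, CA1 and RCA together reached at least 9775 CPM in every library, while of the root endodermis markers CASP1, MYB36 and SCR only SCR had values, at 1.40 to 6.74 CPM. In whole leaves, fewer cells of a type and less RNA per cell cannot be told apart.

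Per kilobase of exon, the plastid enzymes were the most abundant of the 10 transcripts. GLN2, the plastid glutamine synthetase, averaged 718 CPM per kilobase over the 21 libraries, and GLU1, the ferredoxin-dependent glutamate synthase, averaged 197. NIR1, the nitrite reductase, averaged 110, GDH2 93.5, GLN1;1 64.0, NIA2 58.4, NIA1 32.6, ASN2 26.7, GDH1 22.9 and NRT1.1 19.2. The order of range was another one: the highest library exceeded the lowest 41.9-fold for NIA1 and 16.7-fold for NRT1.1, but 3.06-fold for NIR1 and 2.33-fold for GLN2.

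Differences between groups were tested with limma on log2(CPM + 0.5) in 1 fit of all 21 libraries, with p-values adjusted by Benjamini-Hochberg over all genes and a threshold of 0.05. An effect over 3 backgrounds is the mean of 3 differences, each between a group with the agent and the matching group without it, and is given in log2 units ± its standard error. For LiCl the pairs were PAP + ATP + LiCl against PAP + ATP, PAP + LiCl against PAP, and LiCl against control. For ATP they were PAP + ATP + LiCl against PAP + LiCl, PAP + ATP against PAP, and ATP against control. The 2 effects share libraries, controls included. Differences among the 7 groups passed the threshold for 6 of the 10 genes (NIA1, NIA2, NRT1.1, ASN2, GDH1 and GDH2), against 35.5% of all genes tested.

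**Figure D1:**
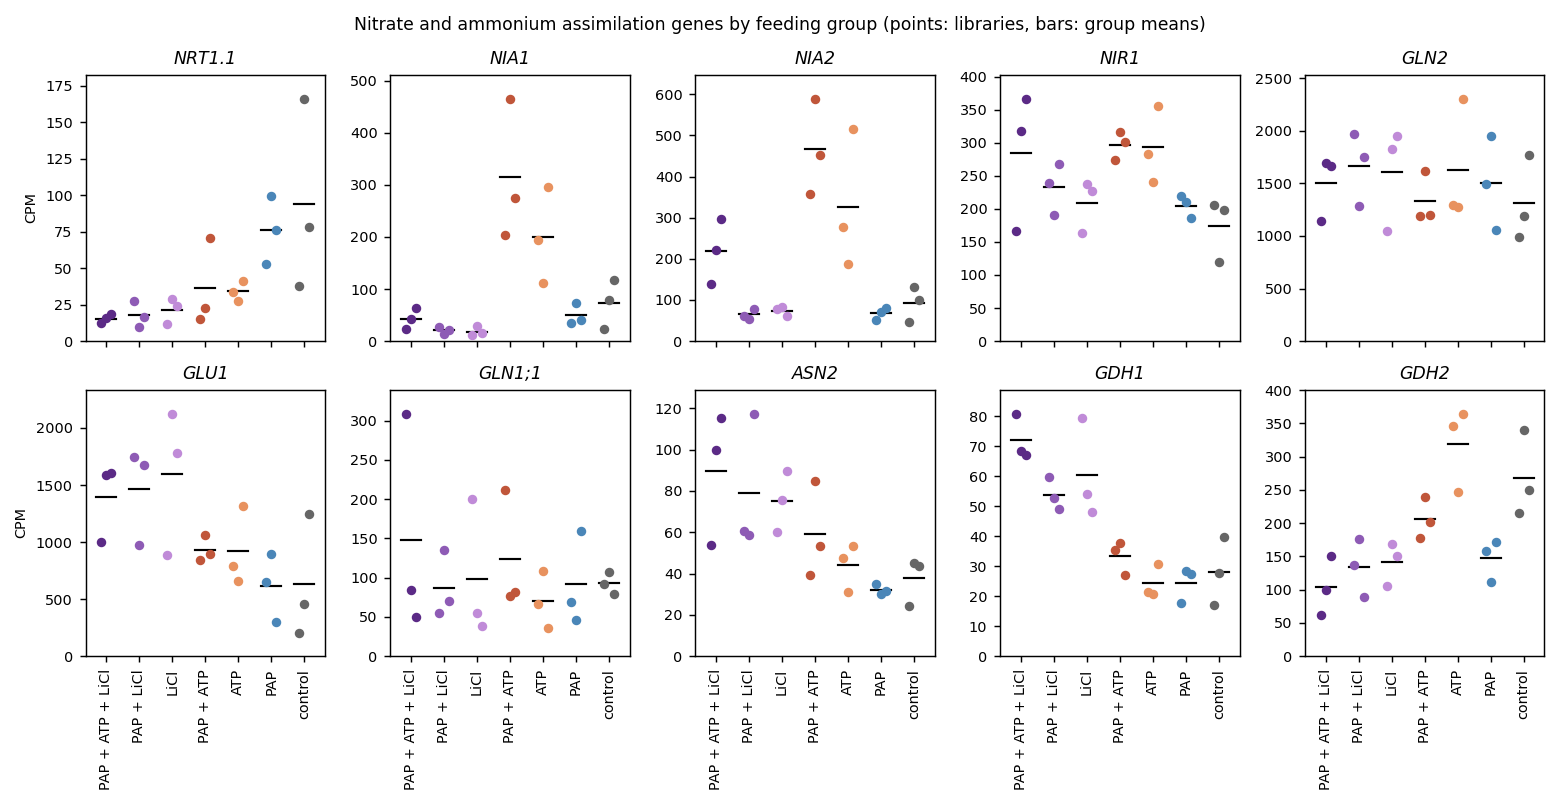
Level of each of the 10 genes in the 21 libraries, in CPM on linear axes that start at 0, with groups from PAP + ATP + LiCl on the left to control on the right; points are libraries and bars are group means. The NIA2 points of the 3 groups fed ATP sit at 138 to 589 CPM, above all others, and the GDH1 points of the 3 groups fed LiCl sit at 48.2 to 80.8 CPM, above all others.

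Both nitrate reductase genes rose in leaves fed ATP, taken over the 3 backgrounds. In single backgrounds the rise of NIA1 passed in the main limma test only for PAP + ATP against PAP. Over the 3 backgrounds NIA1 fell in leaves fed LiCl, while NIA2 had a smaller difference that did not pass in limma. NIA1 (AT1G77760, chr1:29235721-29239484 of TAIR10.1, minus strand, 4 exons) and NIA2 (AT1G37130, chr1:14158452-14161938, plus strand, 3 exons) encode the cytosolic enzyme that reduces nitrate to nitrite with NADH, using a molybdenum cofactor. GDH1 (AT5G18170, chr5:6006035-6008726, plus strand, 9 exons) encodes a subunit of glutamate dehydrogenase. The 250 bases upstream of these 3 genes are shown because their levels separated the feeds most clearly, NIA2 by ATP, NIA1 by LiCl relative to NIA2, and GDH1 by LiCl. The sequences were read from the RefSeq TAIR10.1 genome, 5′ to 3′ on the gene's strand and ending at the base before the annotated start. They were searched on both strands for the G-box CACGTG, the I-box GATAAG, the evening element AAATATCT and the core of the nitrate-responsive element, and capitals mark matches.
NIA1, chr1:29239485-29239734: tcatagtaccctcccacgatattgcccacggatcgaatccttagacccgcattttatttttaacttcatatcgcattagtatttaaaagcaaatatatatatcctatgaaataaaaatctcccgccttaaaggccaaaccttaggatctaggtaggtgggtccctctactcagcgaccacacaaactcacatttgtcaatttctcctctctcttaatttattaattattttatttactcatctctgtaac
NIA2, chr1:14158202-14158451: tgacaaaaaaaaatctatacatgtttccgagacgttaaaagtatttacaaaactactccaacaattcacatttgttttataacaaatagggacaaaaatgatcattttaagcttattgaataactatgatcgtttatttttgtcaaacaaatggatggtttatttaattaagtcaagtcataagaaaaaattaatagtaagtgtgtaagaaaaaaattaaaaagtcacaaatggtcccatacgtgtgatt
GDH1, chr5:6005785-6006034: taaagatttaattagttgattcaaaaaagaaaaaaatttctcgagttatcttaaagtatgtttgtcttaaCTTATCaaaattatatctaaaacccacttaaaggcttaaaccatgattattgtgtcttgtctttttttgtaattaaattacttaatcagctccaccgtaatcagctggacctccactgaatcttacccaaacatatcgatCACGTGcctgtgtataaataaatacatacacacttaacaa
GDH1 was the only one of the 10 genes with a match: a G-box that began 40 bases before the start, and an I-box, read on the other strand, that began 180 bases before it. Of 27443 windows of this length upstream of protein-coding genes, 6.49% held the G-box, 12.3% the I-box, 8.02% the nitrate-responsive core and 4.79% the evening element. A match is a stretch of letters and not a bound site, and a window without one says nothing of the factors.

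NIA2 had 138, 222 and 296 CPM in PAP + ATP + LiCl leaves, 356, 589 and 453 CPM in PAP + ATP leaves and 278, 186 and 516 CPM in ATP leaves. It had 61.9, 53.9 and 79.1 CPM in PAP + LiCl leaves, 78.3, 82.0 and 60.6 CPM in LiCl leaves, 50.9, 70.4 and 81.2 CPM in PAP leaves and 45.9, 131 and 99.9 CPM in control leaves. The 9 libraries with ATP lay above all 12 without it, and the groups did not overlap in any of the 3 backgrounds. NIA2 rose by 2.1 ± 0.23 over the 3 backgrounds, a 4.27-fold difference (limma, adjusted p = 8.7e-05). In single backgrounds its difference was 2.77 ± 0.39 for PAP + ATP against PAP (adjusted p = 0.00328), 1.82 ± 0.39 for ATP against control (0.0121) and 1.69 ± 0.39 for PAP + ATP + LiCl against PAP + LiCl (0.129), of which the last did not pass. The call for ATP against control was lost in a fit of only the compared groups (0.151).

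NIA1 had 203, 465 and 275 CPM in PAP + ATP leaves, 193, 112 and 296 CPM in ATP leaves, 34.9, 73.9 and 41.3 CPM in PAP leaves and 23.7, 78.2 and 117 CPM in control leaves. With LiCl it had 23.0, 41.6 and 63.5 CPM in PAP + ATP + LiCl leaves, 26.4, 14.4 and 21.6 CPM in PAP + LiCl leaves and 11.1, 29.1 and 15.1 CPM in LiCl leaves. Libraries with ATP and no LiCl lay at 112 to 465 CPM and those with LiCl at 11.1 to 63.5 CPM, and LiCl library 2 lay above control library 1. NIA1 rose by 1.73 ± 0.32 with ATP (3.32-fold, adjusted p = 0.00298) and fell by 1.97 ± 0.32 with LiCl (3.91-fold, adjusted p = 9.9e-05). Its largest single difference, 7.45-fold lower, was that of PAP + ATP + LiCl against PAP + ATP (-2.90 ± 0.55, adjusted p = 0.00319). LiCl against control gave -1.80 ± 0.55 (0.031), a call lost without control library 2 or 3 or LiCl library 1 or 3 (adjusted p 0.0897 to 0.108). That call was also lost in a fit of only the compared groups (0.125) and without the 2 libraries highest in plastid reads (0.0504). PAP + LiCl against PAP gave -1.21 ± 0.55 (0.125), which did not pass although those libraries did not overlap.

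The ATP difference of NIA1 was 2.63 ± 0.55 in PAP + ATP against PAP leaves (adjusted p = 0.0159, and 0.0558 without PAP library 1, 0.0647 without PAP + ATP library 2 or 0.0777 in a fit of only the compared groups). It was 1.62 ± 0.55 in ATP against control leaves (0.0783) and 0.95 ± 0.55 in PAP + ATP + LiCl against PAP + LiCl leaves (0.792). The test of the difference between the ATP effects with and without LiCl, in leaves that all received PAP, gave -1.69 ± 0.77 for NIA1 (95% interval -3.31 to -0.06, adjusted p = 0.567) and -1.08 ± 0.55 for NIA2 (-2.24 to 0.08, adjusted p = 0.605). No one of the 10 genes passed this test in limma, edgeR or DESeq2, against 0.0285% of all genes, and NIA1 alone had an unadjusted p under 0.05 (0.0433). The response of NIA1 to ATP was therefore not shown to differ between leaves with and without LiCl. NIA2 differed by -0.46 ± 0.23 with LiCl over the 3 backgrounds (95% interval -0.94 to 0.01, adjusted p = 0.11, and 0.0413 in DESeq2, or 0.0269 in limma without control library 1). Its libraries were apart, lower with LiCl, for PAP + ATP + LiCl against PAP + ATP. They overlapped for PAP + LiCl against PAP and for LiCl against control. The difference against PAP + ATP did not pass in the main limma test. It passed with median-of-ratios scaling (-1.19, adjusted p = 0.0343) and in DESeq2 (-1.17, adjusted p = 0.0112).

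The split of the nitrate reductase pool between its 2 genes is given as a description, with no test, since it was chosen after the values of both genes had been seen. NIA1 made up 15.9 ± 1.69% of the summed CPM of NIA1 and NIA2 in PAP + ATP + LiCl leaves, 24.2 ± 5.02% in PAP + LiCl leaves and 19.5 ± 6.89% in LiCl leaves (SD, n = 3 each). It made up 39.4 ± 4.15% in PAP + ATP leaves, 38.4 ± 2.36% in ATP leaves, 41.9 ± 8.81% in PAP leaves and 41.9 ± 10.7% in control leaves. The 9 libraries with LiCl lay between 12.4% and 30.0%, below the 12 without it, which lay between 33.7% and 54.0%. The mean over libraries with LiCl minus that over libraries without it was -20.5 percentage points, and the fall of NIA1 itself enters it. With and without ATP the share averaged 31.2 ± 11.8% (SD, n = 9) and 31.8 ± 12.7% (SD, n = 12). The 2 genes share no 50-base window of their transcripts, and their coding sequences are 72.5% identical.

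**Figure D2:**
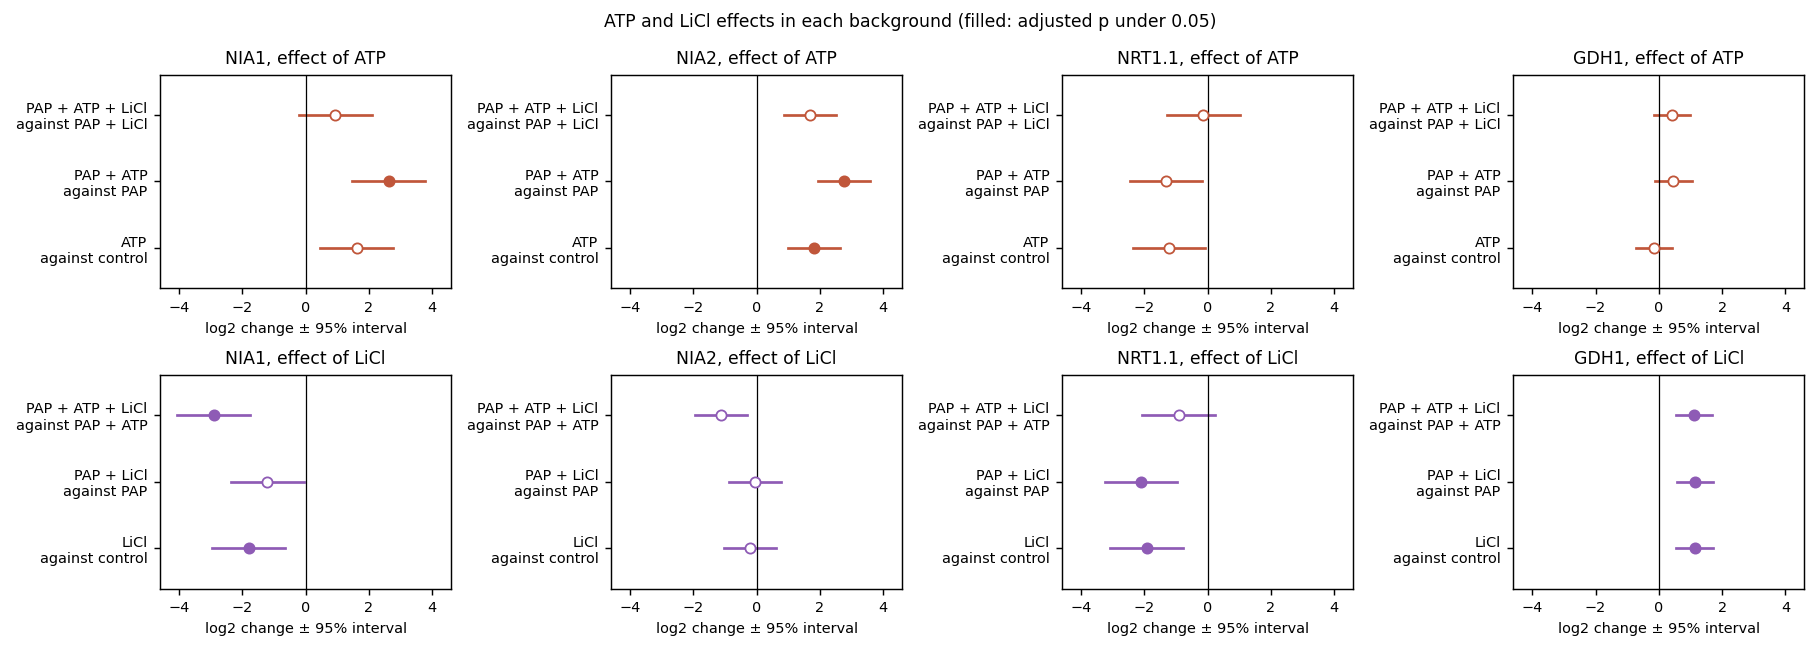
ATP differences (upper panels) and LiCl differences (lower panels) of NIA1, NIA2, NRT1.1 and GDH1 in each of the 3 backgrounds, in log2 units with 95% intervals from limma; filled points passed the threshold. The ATP difference of NIA2 was 1.69 to 2.77 in all 3 backgrounds, and the LiCl difference of GDH1 was 1.11 to 1.14.

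NIR1 (AT2G15620, chr2:6810395-6812941, plus strand), which reduces nitrite to ammonium in the plastid with electrons from ferredoxin, moved less. It had 167, 318 and 366 CPM in PAP + ATP + LiCl leaves, 273, 317 and 300 CPM in PAP + ATP leaves and 283, 240 and 355 CPM in ATP leaves. Without ATP it had 239, 191 and 268 CPM in PAP + LiCl leaves, 163, 238 and 227 CPM in LiCl leaves, 219, 210 and 186 CPM in PAP leaves and 205, 120 and 198 CPM in control leaves. The libraries did not overlap for PAP + ATP against PAP or for ATP against control, but did where LiCl was present. NIR1 rose by 0.51 ± 0.16 with ATP (1.42-fold, adjusted p = 0.0375), and the call was lost in 12 of 27 alternatives, among them without ATP library 1 and PAP + ATP + LiCl library 2 (0.47, adjusted p = 0.11). The rest of these 12 losses came without any 1 of 11 single libraries, with adjusted p up to 0.0761 (PAP + ATP + LiCl library 2). With LiCl NIR1 differed by 0.10 ± 0.16 (adjusted p = 0.62).

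NRT1.1 (AT1G12110, chr1:4105223-4109601, plus strand), the nitrate transporter that also senses nitrate, fell with LiCl. It had 12.1, 15.6 and 18.2 CPM in PAP + ATP + LiCl leaves, 27.4, 9.98 and 16.7 CPM in PAP + LiCl leaves and 11.9, 28.8 and 24.2 CPM in LiCl leaves. It had 15.2, 22.7 and 70.6 CPM in PAP + ATP leaves, 33.4, 27.7 and 41.2 CPM in ATP leaves, 52.8, 99.5 and 76.5 CPM in PAP leaves and 37.8, 166 and 78.2 CPM in control leaves. The 9 libraries with LiCl lay at or below 28.8 CPM, and the groups were apart for PAP + LiCl against PAP and for LiCl against control but overlapped for PAP + ATP + LiCl against PAP + ATP. NRT1.1 fell by 1.66 ± 0.31 over the 3 backgrounds (3.16-fold, adjusted p = 4.4e-04). Single differences were -2.12 ± 0.54 for PAP + LiCl against PAP (0.0101), -1.94 ± 0.54 for LiCl against control (0.0207) and -0.92 ± 0.54 for PAP + ATP + LiCl against PAP + ATP (0.326). The call against PAP was lost without PAP + LiCl library 2 (0.0533). The call against control was lost without control library 2 (0.0959) or LiCl library 1 (0.084), and with only the compared groups (0.0873). With ATP NRT1.1 differed by -0.89 ± 0.31 (95% interval -1.55 to -0.24, adjusted p = 0.0619), a difference that passed in edgeR (0.0488) and DESeq2 (0.0229) and in limma without control library 1, PAP + LiCl library 2 or PAP + ATP library 3.

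GLN2 (AT5G35630, chr5:13830429-13833542, plus strand) and GLU1 (AT5G04140, chr5:1129785-1138488, plus strand) are the plastid pair that fixes most leaf ammonium. GLN2 lay between 988 and 2304 CPM in all 21 libraries, and its differences were 0.21 ± 0.19 with LiCl (95% interval -0.19 to 0.60, adjusted p = 0.395) and 0.00 ± 0.19 with ATP (-0.39 to 0.40, adjusted p = 0.999). GLU1 had 1001, 1588 and 1608 CPM in PAP + ATP + LiCl leaves, 1746, 977 and 1677 CPM in PAP + LiCl leaves and 885, 2124 and 1779 CPM in LiCl leaves. It had 841, 1065 and 897 CPM in PAP + ATP leaves, 794, 662 and 1314 CPM in ATP leaves, 654, 898 and 303 CPM in PAP leaves and 201, 456 and 1246 CPM in control leaves. Of the 3 pairs of groups only PAP + LiCl and PAP were apart, and the control libraries ran from 201 to 1246 CPM. GLU1 rose by 1.17 ± 0.31 with LiCl (2.25-fold, adjusted p = 0.00569). LiCl against control gave 1.62 ± 0.53 (0.0435), a call lost without control library 1 (0.99, adjusted p = 0.246), control library 2, LiCl library 2 or LiCl library 3, and also with no filter on low values (0.0513), with only the compared groups (0.182) and in edgeR (0.0658). That call was also lost without the 2 libraries highest in plastid reads (0.0664). PAP + LiCl against PAP and PAP + ATP + LiCl against PAP + ATP did not pass for GLU1 in limma. The difference against PAP passed in DESeq2 (1.29, adjusted p = 0.039). GLU1 overlaps BHLH101 on the other strand by 79 bases, and BHLH101 had at most 0.313 CPM.

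GLN1;1 (AT5G37600, chr5:14933286-14935885, minus strand), a cytosolic glutamine synthetase, differed between libraries of a group more than between groups. It had 309, 84.9 and 50.4 CPM in PAP + ATP + LiCl leaves, 55.2, 135 and 70.5 CPM in PAP + LiCl leaves and 201, 55.2 and 38.8 CPM in LiCl leaves. It had 212, 76.6 and 81.5 CPM in PAP + ATP leaves, 66.1, 108 and 35.8 CPM in ATP leaves, 69.6, 46.3 and 159 CPM in PAP leaves and 92.2, 107 and 79.6 CPM in control leaves. All 9 pairs of groups compared overlapped, and the highest library lay in PAP + ATP + LiCl leaves. The SD within groups was 0.92 log2 units, the highest of the 10 genes, and its differences were -0.09 ± 0.39 with LiCl (adjusted p = 0.867) and 0.12 ± 0.39 with ATP (0.866). The library of a group with the most GLN1;1 was the one with the least GLU1 in 6 of 7 groups, and likewise the one with the least GLN2 in 6 of 7. It was the one with the least NIR1 in 7 of 7 and the one with the least NIA1 in 5 of 7. The mesophyll marker RBCS1A was also lowest in that library in every group, so this order was not particular to GLU1 and GLN2. NIA1 and GLU1 were highest in the same library in 7 of 7 groups. These orders within groups were noticed in the data and were not tested, and libraries of a group may share handling that the labels do not give.

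**Figure D3:**
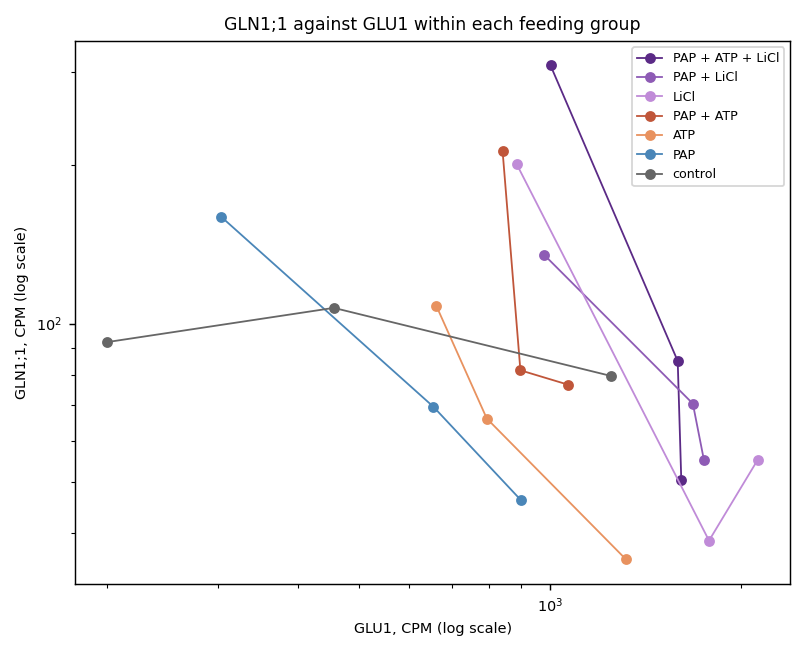
Level of GLN1;1 (vertical) against that of GLU1 (horizontal), both in CPM on log axes, 1 point per library, with lines joining the 3 libraries of a group. The left-most library of a group, which has the least GLU1, is also its highest in GLN1;1 in 6 of 7 groups, and the control group is the exception.

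The glutamate dehydrogenase and asparagine synthetase genes went different ways with LiCl, GDH1 and ASN2 up and GDH2 down. GDH1 encodes the beta subunit and GDH2 the alpha subunit of the mitochondrial glutamate dehydrogenase. GDH1 had 80.8, 68.3 and 67.0 CPM in PAP + ATP + LiCl leaves, 59.7, 52.8 and 49.0 CPM in PAP + LiCl leaves and 79.6, 54.0 and 48.2 CPM in LiCl leaves. It had 35.5, 37.6 and 27.0 CPM in PAP + ATP leaves, 21.3, 20.7 and 30.9 CPM in ATP leaves, 17.8, 28.4 and 27.4 CPM in PAP leaves and 17.1, 27.7 and 39.9 CPM in control leaves. All 9 libraries with LiCl lay above all 12 without it. GDH1 rose by 1.13 ± 0.16 (2.19-fold, adjusted p = 2.8e-05), and its single differences were 1.11 ± 0.28 for PAP + ATP + LiCl against PAP + ATP (0.0172), 1.14 ± 0.28 for PAP + LiCl against PAP (0.00688) and 1.14 ± 0.28 for LiCl against control (0.00916). The rise passed the threshold in each background, but the call against PAP + ATP was lost without PAP + ATP library 3 or PAP + ATP + LiCl library 1 or 2 (adjusted p 0.0525 to 0.0671). That call was also lost without the 2 libraries highest in plastid reads (0.0672). The call against control was lost without control library 1 (0.0576) and with only the compared groups (0.098). GDH1 overlaps AT5G18180 on the other strand by 166 bases, and that gene had at most 0.613 CPM. It shares 10 of its 1802 windows of 50 bases (0.555%) with GDH3.

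GDH2 (AT5G07440, chr5:2355759-2358241, plus strand) had 62.3, 99.96 and 151 CPM in PAP + ATP + LiCl leaves, 138, 176 and 89.0 CPM in PAP + LiCl leaves and 106, 168 and 150.1 CPM in LiCl leaves. It had 178, 240 and 202 CPM in PAP + ATP leaves, 346, 247 and 364 CPM in ATP leaves, 158, 111 and 172 CPM in PAP leaves and 216, 340 and 250.3 CPM in control leaves. Libraries were apart for PAP + ATP + LiCl against PAP + ATP and for LiCl against control, and overlapped for PAP + LiCl against PAP. GDH2 fell by 0.71 ± 0.18 with LiCl (1.64-fold, adjusted p = 0.00444), with single differences of -1.06 ± 0.31 for PAP + ATP + LiCl against PAP + ATP (0.0405), -0.92 ± 0.31 for LiCl against control (0.0503) and -0.16 ± 0.31 for PAP + LiCl against PAP (0.755). The call for PAP + ATP + LiCl against PAP + ATP was lost without any 1 of 5 of its 6 libraries (adjusted p up to 0.155 without PAP + ATP + LiCl library 1). It was also lost with only the compared groups (0.0816) and without the 2 libraries highest in plastid reads (0.135). The difference against control passed in DESeq2 (adjusted p = 0.0335) and in limma on log2(CPM + 2) (0.0496).

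GDH1 made up 42.6 ± 13.0% of the summed CPM of GDH1 and GDH2 in PAP + ATP + LiCl leaves, 29.6 ± 6.23% in PAP + LiCl leaves and 30.5 ± 10.7% in LiCl leaves (SD, n = 3 each). It made up 14.02 ± 2.44% in PAP + ATP leaves, 7.12 ± 1.15% in ATP leaves, 14.7 ± 5.19% in PAP leaves and 9.54 ± 3.64% in control leaves. Libraries with LiCl lay between 23.1% and 56.5% and those without it between 5.79% and 20.4%. The mean with LiCl minus that without it was 22.9 percentage points, likewise a description chosen after the values had been seen, and the rise of GDH1 and fall of GDH2 enter it.

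ASN2 (AT5G65010, chr5:25969035-25972575, plus strand), an asparagine synthetase, had 53.9, 99.8 and 115 CPM in PAP + ATP + LiCl leaves, 60.7, 58.5 and 117 CPM in PAP + LiCl leaves and 60.0, 75.7 and 89.6 CPM in LiCl leaves. It had 39.4, 84.8 and 53.4 CPM in PAP + ATP leaves, 47.7, 31.2 and 53.3 CPM in ATP leaves, 35.2, 29.9 and 31.4 CPM in PAP leaves and 24.4, 45.2 and 43.5 CPM in control leaves. Libraries were apart for PAP + LiCl against PAP and for LiCl against control. ASN2 rose by 0.94 ± 0.20 with LiCl (1.92-fold, adjusted p = 0.0013), and PAP + LiCl against PAP gave 1.21 ± 0.35 (0.0201), LiCl against control 1.02 ± 0.35 (0.0528) and PAP + ATP + LiCl against PAP + ATP 0.60 ± 0.35 (0.326). The call against PAP was lost without PAP library 2 (0.0539) or PAP + LiCl library 3 (0.119). The difference against control passed in limma with median-of-ratios scaling (adjusted p = 0.031), in edgeR (0.0394) and in DESeq2 (0.0135).

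Counted together, 6 of the 10 genes passed for LiCl over 3 backgrounds, 3 higher and 3 lower, against 41.6% of all genes tested (20.1% higher and 21.5% lower). With so many genes called, this count says little of the 10 genes, and the median difference was 0.01 for the 10 genes and 0.01 for all genes. LiCl against control called 4 of 10 (GDH1 and GLU1 higher, NIA1 and NRT1.1 lower) against 17.6% of all genes, PAP + LiCl against PAP 3 of 10 (GDH1 and ASN2 higher, NRT1.1 lower) against 21.6%, and PAP + ATP + LiCl against PAP + ATP 3 of 10 (GDH1 higher, NIA1 and GDH2 lower) against 9.44%. ATP over 3 backgrounds called 3 of 10, all higher, against 15.1% of all genes in either direction and 5.91% higher, and the median of the 10 genes was 0.32 against -0.05 for all genes. ATP against control called NIA2 only (7.26% of all genes), PAP + ATP against PAP called NIA1 and NIA2 (6.86%), and PAP + ATP + LiCl against PAP + LiCl called none (0.113%) in limma or edgeR but NIA2 in DESeq2, with 1 gene, NIA2, at an unadjusted p under 0.05. Median-of-ratios scaling, which moves the median of all genes by 0.20 in ATP against control, added NIA1 and NIR1 to the calls there, and 55.2% of all calls in that comparison were then higher, against 24.9% before. For ATP over 3 backgrounds that share was 53.7%, against 39.2%.

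**Figure D4:**
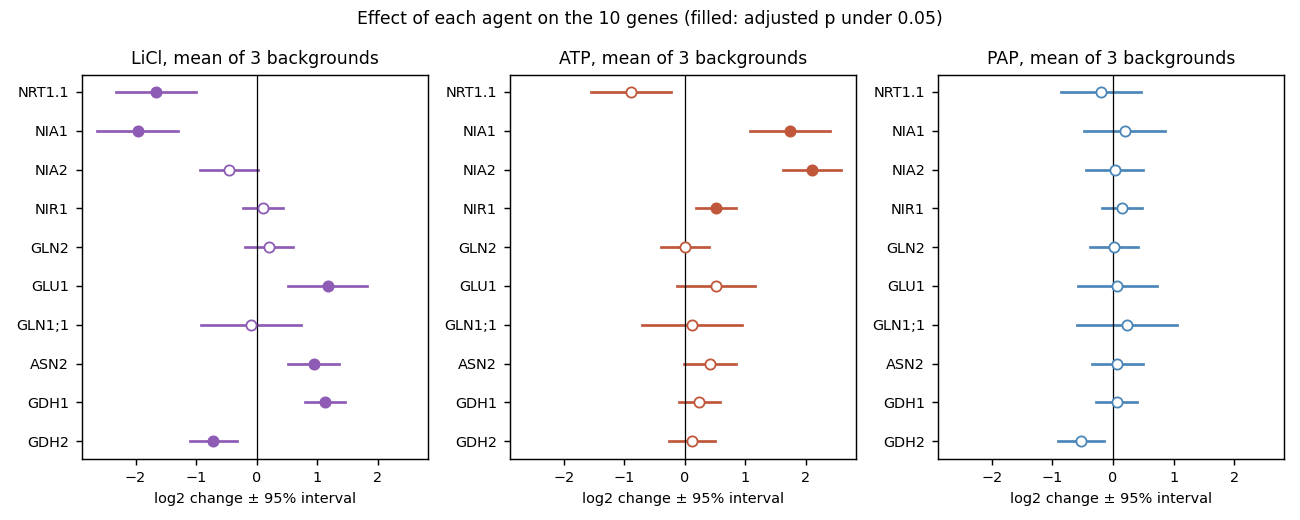
Effects of LiCl, ATP and PAP over 3 backgrounds for each of the 10 genes, in log2 units with 95% intervals from limma; filled points passed the threshold. LiCl has 3 genes to the right of 0 and 3 to the left past the threshold, ATP has 3 to the right, and PAP has none.

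PAP itself called no one of the 10 genes in limma, edgeR or DESeq2, over 3 backgrounds or in any single background, against 0% of all genes in limma. GDH2 came nearest, at -0.53 ± 0.18 over 3 backgrounds (95% interval -0.91 to -0.15, unadjusted p = 0.00919, adjusted p = 1), and was the only gene with an unadjusted p under 0.05 there. Its libraries did not overlap between PAP + ATP and ATP leaves or between PAP and control leaves. For NIA1 and NIA2 the PAP effect was 0.19 ± 0.32 (-0.47 to 0.85) and 0.03 ± 0.23 (-0.45 to 0.50). These intervals are not limits of detection, since GDH2, whose interval excluded 0, was not called either. The tests of PAP with LiCl and of PAP with ATP called none of the 10 genes in any of the 3 tools, had none at an unadjusted p under 0.05, and called 0% of all genes in limma.

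Among other genes of nitrogen use, written in lists from general knowledge, the nitrate signalling genes included the one with the highest ATP response. Of 16 tested, 4 rose and none fell with ATP (median 0.37, all genes -0.05), and 6 rose and 2 fell with LiCl (median 0.28, all genes 0.01). BT2, a BTB and TAZ domain scaffold protein that responds to nitrate and sugar, had 21.8, 26.3 and 32.2 CPM in PAP + ATP + LiCl leaves, 37.6, 29.5 and 20.4 CPM in PAP + ATP leaves and 31.97, 32.7 and 46.6 CPM in ATP leaves. It had 9.47, 15.1 and 17.5 CPM in PAP + LiCl leaves, 12.7, 15.5 and 14.2 CPM in LiCl leaves, 2.23, 1.16 and 5.63 CPM in PAP leaves and 3.14, 7.88 and 3.09 CPM in control leaves. Libraries fell into 3 levels without overlap: with ATP, with LiCl and no ATP, and with neither. BT2 rose by 2.38 ± 0.23 with ATP (5.20-fold, adjusted p = 5.3e-05) and by 1.24 ± 0.23 with LiCl (adjusted p = 4.2e-04). Where ATP was present, the libraries with and without LiCl overlapped (PAP + ATP + LiCl against PAP + ATP).

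NLP7, the transcription factor that binds nitrate and turns on nitrate response genes, rose by 0.98 ± 0.19 with ATP (adjusted p = 0.0036), as did LBD37, a repressor of nitrogen response genes, by 0.99 ± 0.23 (0.00958), and CPK32, a calcium-dependent kinase that acts on NLP7, by 0.72 ± 0.15 (0.00598). For CPK32 the libraries with and without ATP were apart for PAP + ATP against PAP, and overlapped for ATP against control. They also overlapped for PAP + ATP + LiCl (244, 330 and 313 CPM) against PAP + LiCl (224, 235 and 330 CPM). CPK32 also rose by 1.81 ± 0.15 with LiCl (3.52-fold, adjusted p = 1.1e-07). With LiCl NLP2 fell by 1.29 ± 0.24 (4.6e-04) and LBD39 by 0.98 ± 0.35 (0.0317), while TCP20, CPK10, CIPK8 and TGA4 rose by 0.52 to 1.12.

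Of 9 transporter genes tested, 2 rose and 3 fell with LiCl (median 0.08) and 1 fell with ATP (median -0.30). AMT1;1, a high-affinity ammonium transporter, rose by 1.25 ± 0.25 with LiCl (adjusted p = 8.0e-04), and NRT1.2, a low-affinity nitrate transporter, by 0.58 ± 0.14 (0.00251). The AMT1;1 libraries were apart for PAP + ATP + LiCl against PAP + ATP and for PAP + LiCl against PAP. They overlapped for LiCl (72.1, 39.9 and 23.8 CPM) against control (26.9, 60.8 and 24.1 CPM). AMT2, another ammonium transporter, fell by 1.17 ± 0.24 (8.0e-04), and NRT1.7 and NRT2.7 fell by 0.52 and 0.54. NRT1.5, which loads nitrate into the root xylem, fell by 1.43 ± 0.28 with ATP (2.697-fold, adjusted p = 0.00449), with 0.85 to 2.55 CPM in the 9 libraries with ATP against 1.41 to 10.4 CPM in the 12 without it.

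Of 14 further enzymes of ammonium assimilation, 4 rose and 3 fell with LiCl (median 0.12) and 2 rose with ATP (median -0.01). GLT1, the NADH-dependent glutamate synthase, rose by 1.33 ± 0.33 with LiCl (adjusted p = 0.00365), and GLU2, the second ferredoxin-dependent form, by 0.99 ± 0.21 (0.00103). ASN1, the asparagine synthetase induced by darkness and sugar starvation, rose by 1.27 ± 0.34 with LiCl (0.0062) and by 1.5 ± 0.34 with ATP (0.00902). The cytosolic glutamine synthetases differed among themselves with LiCl: GLN1;2 rose by 0.46 ± 0.15 (0.0229), and GLN1;3 and GLN1;4 fell by 0.68 and 0.70.

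Of 13 cofactor and reductant genes, 2 rose and 3 fell with LiCl (median -0.17) and 3 rose and 1 fell with ATP (median 0.26). UPM1, which makes the precursor of the siroheme in nitrite reductase, rose by 1.05 ± 0.18 with ATP (2.07-fold, adjusted p = 0.00216). G6PD2, a plastid glucose-6-phosphate dehydrogenase, rose by 0.69 ± 0.10 with ATP (6.1e-04) and fell by 0.50 ± 0.10 with LiCl (5.7e-04), and CNX2, of molybdenum cofactor synthesis, rose with both, by 0.44 and 0.56. FD3 and RFNR1, a ferredoxin and a ferredoxin reductase of tissue that does not photosynthesise, fell by 1.25 and 0.66 with LiCl, and CNX1 rose by 0.84. SIRB, which puts iron into siroheme, fell by 0.29 ± 0.09 with ATP (0.044). Of 13 photorespiration genes, 6 rose with LiCl (GGT1, AGT1, GLDP1, GOX1, GOX2 and HPR1, by 0.42 to 0.60, list median 0.26) and with ATP none passed in limma, with 1 gene at an unadjusted p under 0.05. PAP called none of the 65 genes of these 5 lists in limma, with 2 at an unadjusted p under 0.05. All LiCl counts stand against the 41.6% of all genes that passed there, and all ATP counts against 15.1%.

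**Figure D5:**
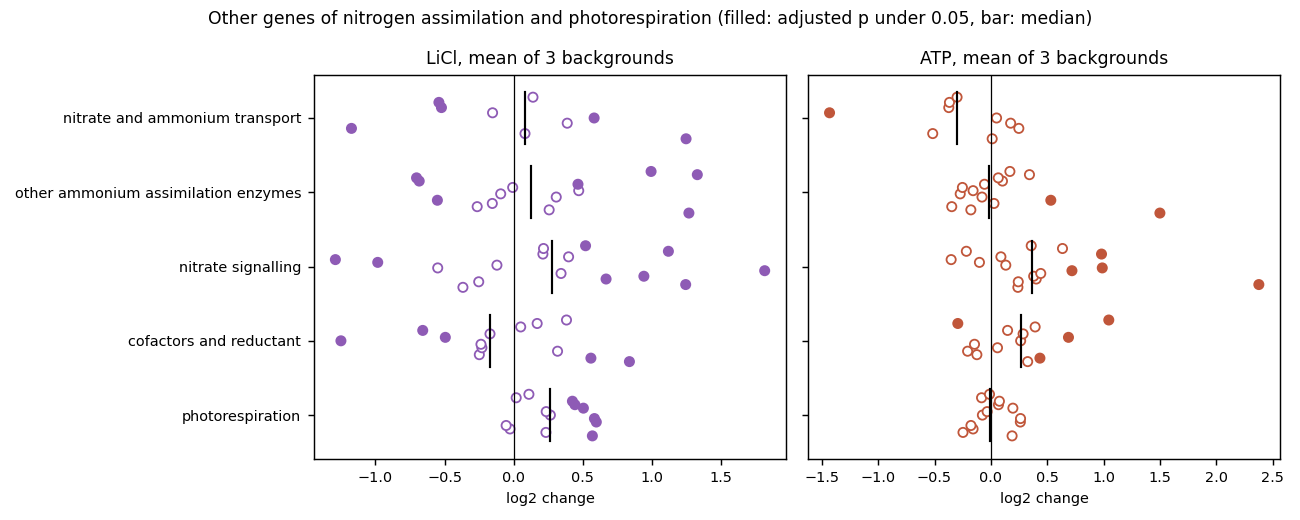
LiCl and ATP effects over 3 backgrounds for the genes of the other nitrogen lists, in log2 units, 1 point per gene, with filled points past the threshold and vertical bars at the median of each list. BT2 has the highest ATP effect, 2.38, and CPK32 the highest LiCl effect, 1.81.

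Over the 5 lists of cell type markers, 7 of 16 genes tested passed for LiCl, against 41.6% of all genes, and 2 of 16 for ATP, against 15.1%. Of 4 mesophyll markers 2 rose (LHCB1.1 by 1.2 and RCA by 0.70), and the summed level ran from 12591 to 29517 CPM in groups with LiCl against 9775 to 29507 CPM without it. Of 4 phloem markers SUC2 rose by 0.99 and APL by 0.50, and SWEET11 and SWEET12 fell by 0.67 and 0.99 (summed 254 to 318 CPM with LiCl against 142 to 337 CPM without). Of 3 epidermis markers tested CER5 fell by 0.72 with LiCl (summed 104 to 367 CPM against 193 to 768 CPM), and of 4 guard cell markers none passed. With ATP, FDH of the epidermis rose by 0.86 and SUC2 by 0.76. The part of these markers, and of plastid reads, in the differences above was not tested. Without the 2 libraries highest in plastid reads, 6 of the 10 genes passed for LiCl, against 6109 of 17430 of all genes, and 2 for ATP, against 1253 of 17453.

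By Pearson correlation of log2 means over the 7 groups, among 12700 genes with a mean of at least 5 CPM, the nearest gene to NIR1 was NLP7 (r = 0.99), to NRT1.1 NIT1 (r = 1.00), to NIA1 BIL4 (r = 0.99) and to NIA2 AT5G24620 (r = 0.99). For GLU1 it was DFD, for ASN2 AT1G20670, for GDH1 AT2G17110, for GLN2 APG3, for GDH2 CBF2 (r = 0.97) and for GLN1;1 AT2G47970 (r = 0.95). With 7 points and so many genes searched, high values arise for any pattern, and the means share libraries and depth. NIA1 and NIA2 had r = 0.85 with each other, NRT1.1 and GLU1 -0.98, and GDH1 and GDH2 -0.80.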

How the data were processed

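Polyadenylated RNA was sequenced from 21 libraries in 7 groups. Subread and featureCounts were used with TAIR10, per the submitters' processing notes, with versions not given in the sources used here. The TruSeq V2 kit named in the labels does not mark strand. Values in the deposited table are CPM, which the authors scaled to library totals. Each value equalled a whole number of reads within a tolerance of 1e-06 (100.0% of values in every library), so reads were recovered. Columns name the group but no replicate, and libraries were numbered in column order. The table leaves some genes blank in all libraries of a group: 18230 of 21156 had values in all 7 groups. Blanks were kept as missing, so each comparison was tested on the genes with values in its groups (17440 to 17710 genes past the filter), and the count models used genes with values in all groups.

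The main test was limma 3.58.1 in R 4.3.3 with an intensity-dependent prior, 1 mean per group, on log2(CPM + 0.5). Genes needed 1 CPM or more in 3 or more libraries, and tests were two-sided. Changes are on that scale, which understates those of low genes. The test was tried on simulated data in which fewer genes changed with LiCl than passed here. Nothing is concluded from that trial about the scaling to library totals. Alternatives were pseudocounts of 0.1 and 2, dropping the filter, a filter on means under 5 CPM, median-of-ratios scaling, fits of the 2 or more groups compared alone, leaving out single libraries, and the count models of edgeR 4.0.16 (quasi-likelihood) and DESeq2 1.42.0. Leaving out the 2 libraries highest in plastid reads, and the shares of paired genes with their alternatives, were added after seeing the data.

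The 10 genes and all lists were chosen with earlier results of these data known. The rule named the 10 genes, the 4 genes of each list with the smallest p for LiCl and for ATP, and the genes most alike each of the 10. Other list genes past the threshold were named after their values were seen. Of the list symbols, 4 that the reference does not pair with their identifier were not used. Positions, overlaps and sequences came from RefSeq TAIR10.1, and the positions are of that build.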

Additional observations from a re-analysis of the deposited data

How the results depend on the processing

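No paired analysis was possible because the columns carry no replicate number. Over all alternatives, the 28 calls of single genes in limma were tried 606 times: 556 times they held, 50 times they lost the threshold and 0 times they changed sign. The 6 LiCl calls over 3 backgrounds and the ATP calls of NIA1 and NIA2 held in all 27 alternatives each. The 132 results not called were tried 2464 times; 24 of these passed, and 185 changed sign, none of them passing. The differences in the share of NIA1 ran from -21.8 to -19.3 percentage points and those in the share of GDH1 from 20.1 to 24.3 over 22 alternatives each.

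Counts in single backgrounds moved more. LiCl against control called 4 of the 10 genes, 6 in DESeq2, 0 with only the compared groups, 2 without the libraries highest in plastid reads, and 1 to 3 with 1 library left out. PAP + LiCl against PAP called 3, 4 in DESeq2, and 2 to 3 with 1 left out. PAP + ATP + LiCl against PAP + ATP called 3, 4 in DESeq2, 1 without the libraries highest in plastid reads, and 1 to 3 with 1 left out. ATP against control called 1, 3 with median-of-ratios scaling, 0 with only the compared groups, 3 in DESeq2, and 1 to 2 with 1 left out. PAP + ATP against PAP called 2, 1 with only the compared groups, and 1 to 3 with 1 left out. PAP + ATP + LiCl against PAP + LiCl called 0, and 1 in DESeq2. The counts over all genes moved as well: LiCl against control called 3102 of 17587 genes, 1162 of 16666 with only the compared groups and 2486 of 17555 without the libraries highest in plastid reads, and PAP + ATP + LiCl against PAP + ATP called 1667 of 17661 and 631 of 17619 without those libraries. ATP against control called 1283 of 17667, 15 of 16613 with only the compared groups, 893 of 17646 with median-of-ratios scaling and 1686 of 17440 in DESeq2, PAP + ATP against PAP called 1212 of 17673 and 8 of 16652 with only the compared groups, and PAP + ATP + LiCl against PAP + LiCl called 20 of 17638 and 136 of 17440 in DESeq2. Counts over all genes are not given here for DESeq2 in the single LiCl backgrounds or with 1 library left out. In those settings the counts of the 10 genes cannot be read against all genes. The cause of these moves was not tested, beyond the fewer libraries in some fits. On the recovered reads edgeR called 7477 genes for LiCl over 3 backgrounds and DESeq2 8175, against 7255 in limma. The 10 genes had at least 235 reads in every library, and what depth limits was not tested.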
